A study of Rattus norvegicus with 32 samples.

Results

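RT1-CE5, RT1-N2 and RT1-T24-1 are rat major histocompatibility complex (MHC) class I genes, each measured here by 1 probe set of an Affymetrix rat gene array. They were taken as every probe set annotated to 1 of these 3 genes and to no other gene, which gave 3 of the 14506 genes with such a probe set and 3 of the 29215 probe sets in the table (10831099 for RT1-CE5, 10827782 for RT1-N2 and 10827835 for RT1-T24-1). The genes were picked with their signals by donor stage and tissue already known, so the differences between stages and between tissues are given below as descriptions, and nothing is read from the limma calls on them. The changes with transplantation were tested.

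MHC class I molecules are membrane glycoproteins that show peptides from inside the cell to CD8 T cells and, in several nonclassical forms, to natural killer cells and other lymphocytes. Each consists of a heavy chain, the product of genes such as these 3, and the light chain B2m, and is loaded with peptide in the endoplasmic reticulum with the help of the peptide transporter Tap1 and Tap2 and the chaperone Tapbp. In the thymus, class I molecules on epithelial cells take part in the positive selection of CD8 T cells. In the rat the complex is called RT1. RT1-CE5 lies in its C/E region, and RT1-N2 and RT1-T24-1 in the stretch that continues it, where nonclassical (class Ib) genes are frequent and closely related copies lie side by side. The number of these genes differs between rat haplotypes.

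RNA came from 16 cultures, each on 2 arrays. All cells came from Sprague-Dawley rats that carry enhanced green fluorescent protein under an actin promoter (SDTgN (act-EGFP)obsCZ-004), and were grown on irradiated mouse 3T3-J2 fibroblasts. The series compared thymic epithelial cells (TEC), which form the thymic stroma, with hair follicle (HF) cells, before and after transplantation into the skin of nude mice and recovery into culture. Values are log2 signals made by RMA, which corrects, normalizes and summarises the probes of a set, so 1 unit is a doubling of signal.

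E16 is an embryonic and P1 a postnatal donor stage, and the labels do not explain P5. The ungrafted TEC cultures were PRE16cl11_VII (E16, clonal), PRP1cl11_VII (P1, clonal), PRP4mo_bulk (4 months, bulk) and PRP4mo_Cl09 (4 months, clonal). After a first transplantation there were Clone_217 and Clone_218 (E16), Clone_57 (P1) and Clone_907 (4 months). After a second transplantation there were Clone_287 and Clone_347 (E16), Clone_194 (P1) and Clone_354 (4 months). Clone_907 and Clone_354 carry the word clone in their titles and the word bulk in their source names, and are counted as bulk here. The HF cultures, all labelled P5, were YR219P5_Bulk_V (bulk) and YR219P5cl7 (clonal) before grafting, and YR219P5_RC (bulk) and Clone_54 (clonal) after a first transplantation. No TEC culture was labelled P5 and no HF culture carried another stage, so tissue and stage cannot be told apart between them. The 4-month cultures made up 2 of the 4 ungrafted TEC cultures and 1 of 4 in each grafted TEC group, and all 3 bulk TEC cultures were of 4 months. The labels do not say which animals the cultures came from, so the tests measure the spread between cultures. Sprague-Dawley is an outbred stock and the labels give no RT1 haplotype.

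Array medians lay between 5.29 and 5.55, except for array 1 of YR219P5_RC at 5.78, and arrays of 1 culture correlated at 0.984 to 0.996 across probe sets. Over 13 probe sets of epithelial markers the mean signal per culture ran from 8.83 to 10.31, with Krt14, a basal keratin, between 12.95 and 13.35 in every culture. The mean over 11 probe sets of haematopoietic markers ran from 4.09 to 4.52. Ptprc (CD45, carried by nearly all leukocytes) lay between 3.16 and 3.88.

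The 250 bases upstream of each gene's start are shown because RT1-CE5 and RT1-N2 were lower in E16 than in later TEC stages. RT1-T24-1 was not. They are RefSeq sequence of build GRCr8, at chr20:3484091-3484340 on the minus strand for RT1-CE5, chr20:2646080-2646329 on the plus strand for RT1-N2 and chr20:2766054-2766303 on the plus strand for RT1-T24-1, each written 5′ to 3′ on the gene's strand. Capitals mark CCAAT and AANNGAAA on either strand.
RT1-CE5: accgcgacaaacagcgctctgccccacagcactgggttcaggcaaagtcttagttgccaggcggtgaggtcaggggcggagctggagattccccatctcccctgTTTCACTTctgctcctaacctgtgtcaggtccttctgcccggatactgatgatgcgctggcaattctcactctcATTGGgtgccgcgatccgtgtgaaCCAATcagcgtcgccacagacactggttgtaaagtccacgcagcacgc
RT1-N2: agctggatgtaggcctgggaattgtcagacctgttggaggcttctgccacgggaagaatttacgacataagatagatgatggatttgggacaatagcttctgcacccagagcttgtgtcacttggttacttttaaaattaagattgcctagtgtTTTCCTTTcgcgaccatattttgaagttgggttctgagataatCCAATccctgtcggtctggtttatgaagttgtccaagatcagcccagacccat
RT1-T24-1: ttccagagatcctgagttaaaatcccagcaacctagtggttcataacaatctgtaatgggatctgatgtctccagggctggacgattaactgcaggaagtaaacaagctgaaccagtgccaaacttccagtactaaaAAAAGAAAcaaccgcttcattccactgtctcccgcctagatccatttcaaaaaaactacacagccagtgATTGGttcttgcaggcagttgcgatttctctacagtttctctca

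GC made up 58% of the RT1-CE5 stretch, 44.4% of that of RT1-N2 and 43.6% of that of RT1-T24-1. CCAAT, the letters of the CCAAT box, was found in all 3: at -72 (as ATTGG) and -48 in RT1-CE5, at -53 in RT1-N2 and at -44 (as ATTGG) in RT1-T24-1, counted from the annotated start to the first base of the match. These letters also occur in 34% of the 33469 rat promoter stretches of this length and in 20 of 33 class I RT1 promoters. AANNGAAA, the core letters that interferon regulatory factors recognise, was also found in all 3: at -146 (as TTTCACTT) in RT1-CE5, at -96 (as TTTCCTTT) in RT1-N2 and at -113 (as AAAAGAAA) in RT1-T24-1. It occurs in 23.3% of all stretches and in 23 of the 33 class I RT1 promoters. GGGANTCCC, a kappaB core as in class I enhancer A, and TGACG, the core of a cAMP response element, were searched on both strands and not found in the 3 stretches. They occur in 0.553% and 18.2% of all stretches and in 8 and 8 of the 33 class I RT1 promoters. No match overlapped another, and a match is a run of letters only. AANNGAAA and GGGANTCCC are short cores, and longer forms of them were not counted over all stretches. None of the 3 stretches, as printed, holds GAAA, any pair of bases and GAAA again, on either strand. All 3 stretches held the short cores CCAAT and AANNGAAA. The part of these letters in the stage differences was not tested.

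RT1-CE5 was low in E16 TEC, intermediate in P1 TEC and high in 4-month TEC. The 5 E16 cultures read 5.89 in Clone_347, 5.94 in Clone_287, 6.08 in PRE16cl11_VII, 6.12 in Clone_218 and 6.16 in Clone_217. In the 3 P1 cultures the signal was 6.86 in Clone_194, 6.96 in PRP1cl11_VII and 7.23 in Clone_57. The 4 cultures of 4 months gave 7.23 in Clone_354, 7.51 in PRP4mo_Cl09, 7.96 in PRP4mo_bulk and 8.37 in Clone_907. Every E16 culture thus lay below every P1 culture, and every P1 culture below every 4-month culture, although the last step was as narrow as 0.0010 between Clone_57 and Clone_354.

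The stage means of RT1-CE5 were 6.04 ± 0.12 (SD, n = 5) for E16, 7.02 ± 0.19 (SD, n = 3) for P1 and 7.77 ± 0.50 (SD, n = 4) for 4 months. The 4-month mean was 3.31-fold that of E16, and the lowest 4-month culture stood 1.07 log2 units above the highest E16 culture. P1 was 1.97-fold above E16, with a gap of 0.70 between the ranges. With the transplantation count in the model the differences were 1.74 ± 0.15 (SE) for 4 months minus E16, 0.98 ± 0.16 for P1 minus E16 and 0.75 ± 0.17 for 4 months minus P1. The 4-month cultures were also the most spread, and the smallest step between stages was within the error of the arrays. Single arrays of Clone_354 read 7.16 and 7.30 and those of Clone_57 read 7.19 and 7.27, and the arrays of a culture differed by a median of 0.144.

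The clonal 4-month culture, PRP4mo_Cl09, read 7.51 and the 3 bulk cultures of that stage 7.23 to 8.37, so the clone lay inside the range of the bulk cultures. With clonal cultures alone, which leaves 1 culture of 4 months, the difference of 4 months from E16 was 1.48 and that from P1 was 0.50.

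HF cells had RT1-CE5 in the range of E16 TEC. The 4 HF cultures read 5.95 in YR219P5_Bulk_V, 6.02 in Clone_54, 6.13 in YR219P5cl7 and 6.32 in YR219P5_RC, a mean of 6.11 ± 0.16 (SD, n = 4). Their range overlapped that of the E16 cultures, and both lay below all P1 and 4-month TEC cultures.

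**Figure D1:**
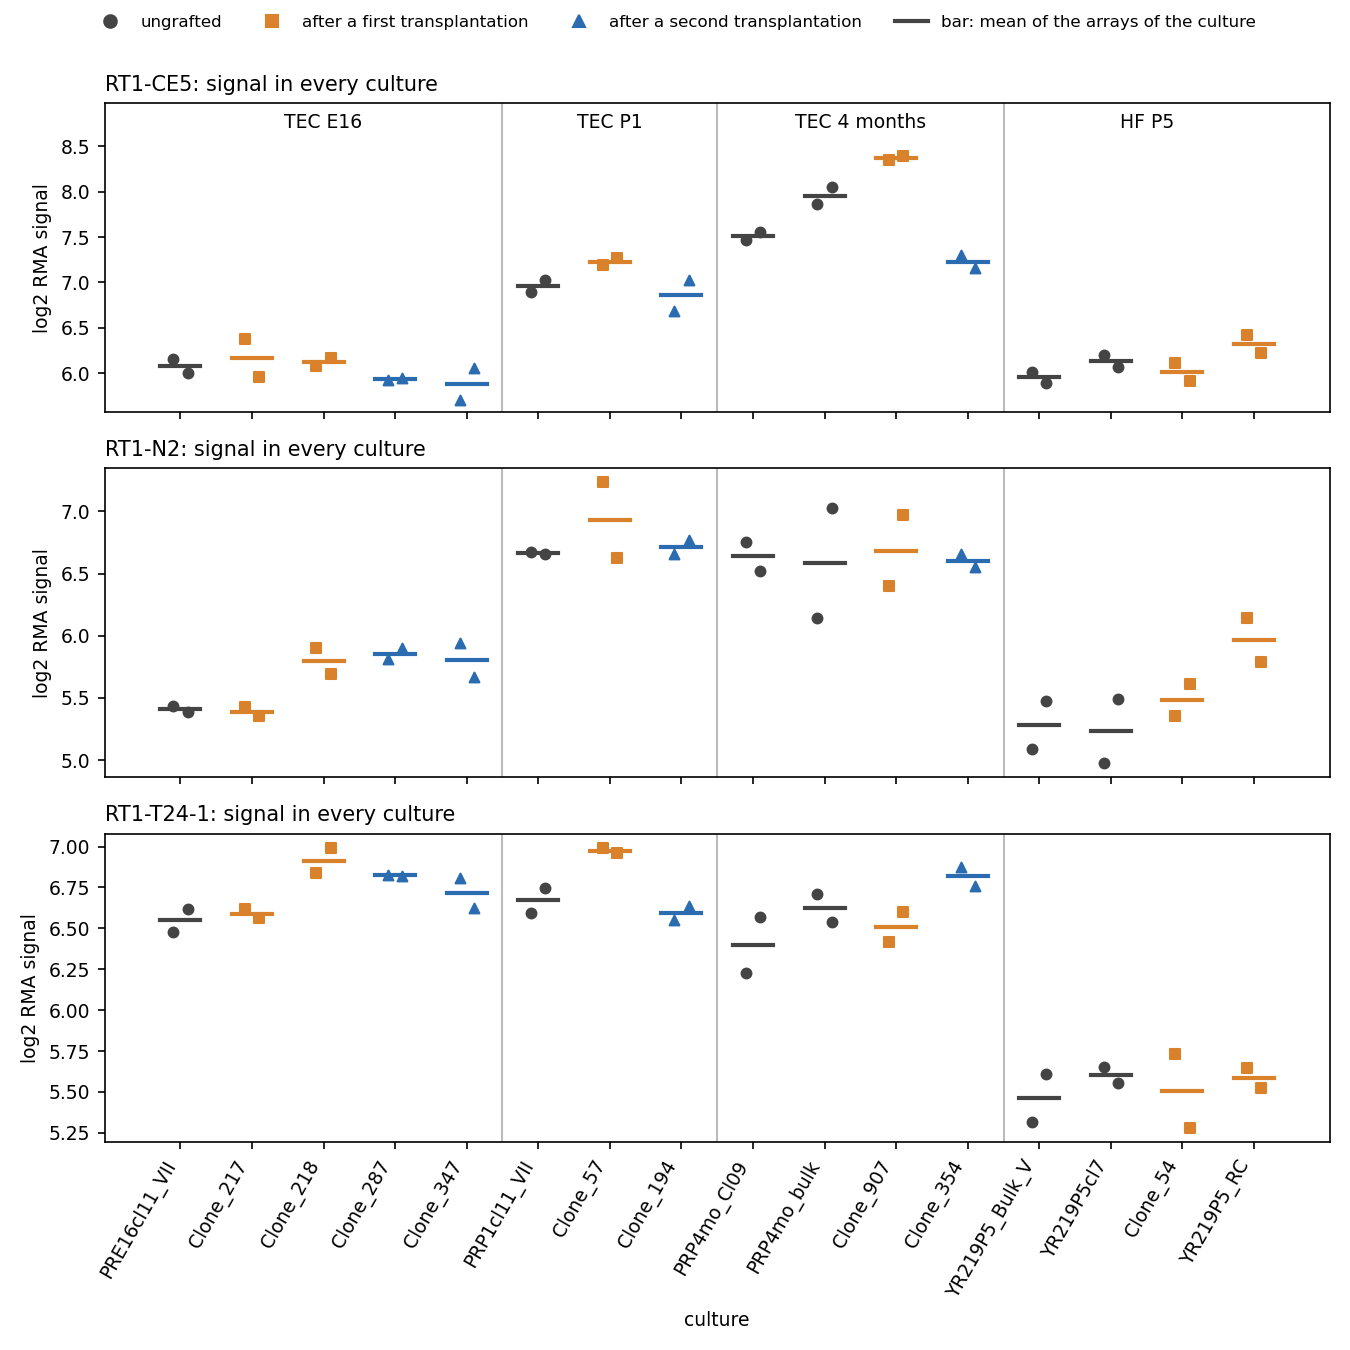
Signal (log2 RMA) of RT1-CE5, RT1-N2 and RT1-T24-1 on the 2 arrays (points) of each of the 16 cultures, with the culture mean as a bar, ordered by donor stage and tissue, coloured and shaped by transplantation count. RT1-CE5 steps up from 6.04 in E16 to 7.02 in P1 and 7.77 in 4-month TEC, RT1-N2 is low in E16 TEC and HF only, and RT1-T24-1 is low in HF only. Each panel has its own vertical scale.

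RT1-N2 had an E16 level apart from both later stages, with no further step between P1 and 4 months. The E16 cultures read 5.39 in Clone_217, 5.41 in PRE16cl11_VII, 5.80 in Clone_218, 5.81 in Clone_347 and 5.86 in Clone_287. The P1 cultures read 6.66 in PRP1cl11_VII, 6.72 in Clone_194 and 6.93 in Clone_57. The 4-month cultures read 6.59 in PRP4mo_bulk, 6.60 in Clone_354, 6.64 in PRP4mo_Cl09 and 6.68 in Clone_907. The P1 and 4-month ranges overlapped, and both lay above every E16 culture.

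The RT1-N2 means were 5.65 ± 0.23 (SD, n = 5) for E16, 6.77 ± 0.14 (SD, n = 3) for P1 and 6.63 ± 0.043 (SD, n = 4) for 4 months. P1 was 2.17-fold and 4 months 1.97-fold above E16, with gaps of 0.81 and 0.73 between the ranges. With the transplantation count in the model, P1 minus E16 was 1.14 ± 0.12 (SE), 4 months minus E16 was 1.02 ± 0.12 and 4 months minus P1 was -0.12 ± 0.13. The 4-month cultures lay closer to each other than the arrays of PRP4mo_bulk, Clone_907 or PRP4mo_Cl09 did. The arrays of PRP4mo_bulk read 6.14 and 7.03, a gap of 0.890 that was the widest of RT1-N2, whose median gap was 0.247.

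The E16 cultures formed a lower pair, Clone_217 and PRE16cl11_VII, and 3 cultures between 5.80 and 5.86, which include both cultures grafted a second time. HF cultures read 5.23 in YR219P5cl7, 5.28 in YR219P5_Bulk_V, 5.48 in Clone_54 and 5.97 in YR219P5_RC, a mean of 5.49 ± 0.34 (SD, n = 4). That range spans the whole E16 range and lies below all P1 and 4-month TEC cultures. The highest HF culture, YR219P5_RC, is the one whose array 1 had the highest median. Its arrays read 6.14 and 5.79 for RT1-N2.

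RT1-T24-1 separated the tissues and not the TEC stages. The 12 TEC cultures ran from 6.40 in PRP4mo_Cl09 to 6.97 in Clone_57, with a median of 6.65 and a mean of 6.68 ± 0.17 (SD, n = 12). The HF cultures read 5.46 in YR219P5_Bulk_V, 5.50 in Clone_54, 5.59 in YR219P5_RC and 5.60 in YR219P5cl7, a mean of 5.54 ± 0.066 (SD, n = 4). The TEC mean was 2.21-fold the HF mean, and the lowest TEC culture stood 0.79 above the highest HF culture.

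Among the TEC stages the RT1-T24-1 means were 6.72 ± 0.15 (SD, n = 5) for E16, 6.75 ± 0.20 (SD, n = 3) for P1 and 6.59 ± 0.18 (SD, n = 4) for 4 months, and all ranges overlapped. With the transplantation count in the model, 4 months minus E16 was -0.083 ± 0.12 (SE) and P1 minus E16 was 0.049 ± 0.12. Single arrays of Clone_54 differed by 0.454, the widest gap for this gene, against a median gap of 0.146.

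The levels therefore had different orders. For RT1-CE5 the order was 4 months, P1, HF and E16, with HF and E16 overlapping. For RT1-N2 it was P1 and 4 months, overlapping, and then E16 and HF, overlapping. For RT1-T24-1 the 3 TEC stages overlapped and HF lay apart below them.

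The genes were chosen with these stage and tissue patterns known, so nothing is read from the counts that follow. In the limma fit over the TEC stages RT1-CE5 and RT1-N2 were past the threshold for 4 months minus E16, beside 0.0914% of all probe sets, and for P1 minus E16, beside 6.08%. None of the 3 was for 4 months minus P1, beside 0.353%. The culture ranges of RT1-CE5 and RT1-N2 did not overlap between 4 months and E16 nor between P1 and E16. Over all 15310 probe sets with 1 gene symbol, ranges did not overlap in either direction for 2.24% between 4 months and E16, for 15.7% between P1 and E16 and for 8.66% between 4 months and P1. Between the 12 TEC and 4 HF cultures 2.44% did not overlap, RT1-T24-1 among them. The mean of RT1-CE5 over the 12 TEC cultures was 0.75 above that of HF and the mean of RT1-N2 was 0.77 above it, with overlapping ranges, since the E16 TEC cultures lay within or near the HF range.

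RT1-CE5 and RT1-N2 correlated across the 16 cultures with a Pearson r of 0.82, and of 0.80 across the 12 TEC cultures. After each TEC culture's stage mean was subtracted, r was 0.017. The shared variation of this pair was thus that between the stage means. RT1-T24-1 had an r of 0.33 with RT1-CE5 and of 0.55 with RT1-N2 over 16 cultures, and of -0.33 and 0.0094 over the TEC cultures. With stage means subtracted among the TEC cultures, its r was -0.11 with RT1-CE5 and 0.61 with RT1-N2. These values are descriptions, and cultures of a stage may share donors.

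**Figure D2:**
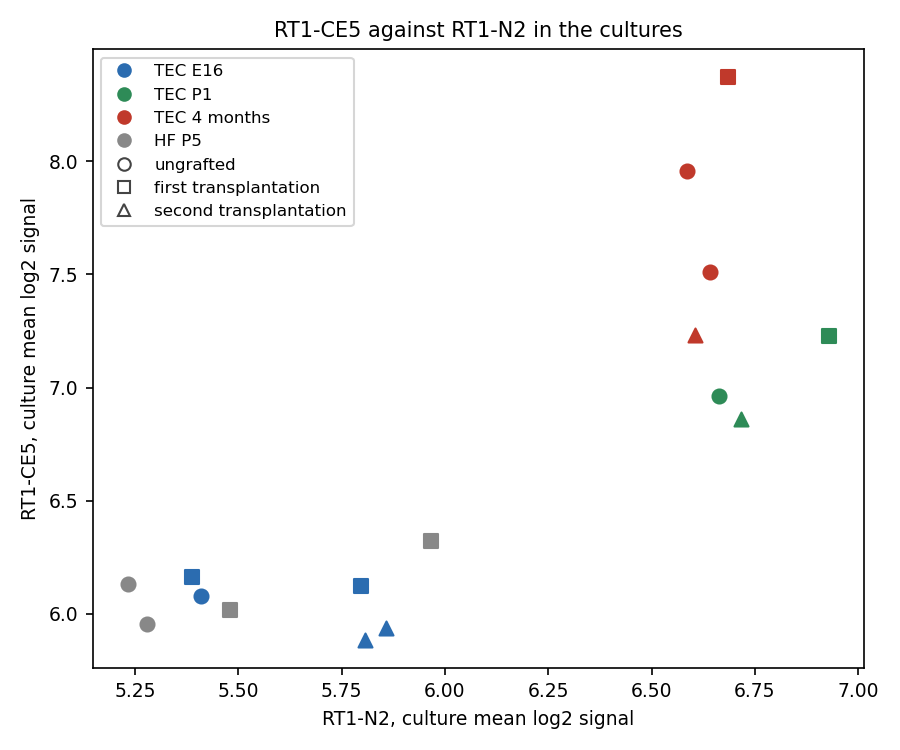
Culture means of RT1-CE5 (vertical axis, log2 signal) against RT1-N2 (horizontal axis, log2 signal) for the 16 cultures, coloured by donor stage and tissue and shaped by transplantation count. E16 TEC and HF cultures share the lower left corner, P1 and 4-month TEC share the same RT1-N2 range, and RT1-CE5 spreads from 7.23 to 8.37 among the 4-month cultures.

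Transplantation was the comparison that could be tested. None of the 3 genes passed an adjusted p of 0.05 in limma, with Benjamini-Hochberg adjustment over the 15310 probe sets, in TEC after a first or a second transplantation, between the grafted groups of TEC, or in grafted HF. None had an unadjusted p under 0.05 either. How many of all probe sets lay under that cutoff was not counted. Nothing is read from such counts, here or for the lists below. The share of all probe sets past the threshold was 0.516% for TEC after a first transplantation against ungrafted TEC, 3.86% after a second, 0% between second and first, and 0% in HF. A count of 0 of 3 lies near these shares and is no result about the 3 genes. The intervals below use a spread estimated over all 5 groups together, so those for HF also carry the spread of the TEC cultures. For RT1-CE5 the SD was 0.13 and 0.22 in the HF groups, against 0.67 to 1.06 in the TEC groups.

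For RT1-CE5 the mean of ungrafted TEC was 7.13 ± 0.81 (SD, n = 4), with 6.97 ± 1.06 after the first graft and 6.48 ± 0.67 after the second. The difference after a first transplantation was -0.16 ± 0.50 (SE; 95% interval -1.23 to 0.92; limma adjusted p = 0.931). After a second it was -0.65 ± 0.50 (-1.72 to 0.42; limma adjusted p = 0.530). It was -0.37 without PRP4mo_bulk and -0.998 without PRE16cl11_VII. The groups hold different shares of donor stages, and the stage differences of RT1-CE5 were wider than these changes. With donor stage in the model the values were 0.28 (-0.057 to 0.61; limma adjusted p = 0.442) and -0.21 (-0.55 to 0.12; limma adjusted p = 0.498). The direction after a first transplantation therefore turned with the model.

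Within each donor stage, RT1-CE5 after a first transplantation stood above the ungrafted culture and after a second below it. In E16 it read 6.08 ungrafted, 6.14 after the first graft and 5.91 after the second. In P1 it read 6.96, 7.23 and 6.86. At 4 months it read 7.73, 8.37 and 7.23. The second was lower than the first in all 3 stages, with 1 or 2 cultures behind each value. Against the ungrafted culture, the first graft in E16 differed by 0.063 and the second in P1 by -0.11. Both steps were smaller in size than the median gap of 0.144 between arrays of a culture. The difference of second from first was -0.49 ± 0.50 (SE; -1.57 to 0.58; limma adjusted p = 1.00). It was -0.027 without Clone_907, the only 4-month culture grafted once, whose loss also changes the stage mix of that group, and -0.78 without Clone_218. With donor stage in the model it was -0.49 ± 0.15 (-0.82 to -0.17), with an unadjusted p of 0.00637 and a limma adjusted p of 0.978.

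RT1-N2 had means of 6.33 ± 0.61 (SD, n = 4) in ungrafted TEC, 6.20 ± 0.73 after the first graft and 6.25 ± 0.48 after the second. The difference was -0.13 (-0.91 to 0.65; limma adjusted p = 0.920) after a first and -0.079 (-0.86 to 0.70; limma adjusted p = 0.943) after a second. With donor stage in the model both turned positive, at 0.13 (-0.16 to 0.42) and 0.18 (-0.11 to 0.46). Within E16 the first graft was 0.18 and the second 0.42 above the ungrafted culture, within P1 0.26 and 0.052 above it, and at 4 months the differences were 0.070 and -0.0094.

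In HF cells RT1-N2 went from 5.26 ± 0.033 (SD, n = 2) ungrafted to 5.72 ± 0.34 after a first transplantation. This difference was 0.47 ± 0.51 (SE; -0.63 to 1.57; limma adjusted p = 0.761). All HF cultures are P5, so donor stage in the model left the HF difference at 0.47 and changed only the shared spread. The interval then ran from 0.072 to 0.86 (limma unadjusted p = 0.0243, limma adjusted p = 0.49). It is thus not an HF change adjusted for stage. The 2 grafted HF cultures stood apart, at 5.97 in YR219P5_RC and 5.48 in Clone_54. The difference was 0.22 without YR219P5_RC, 0.71 without Clone_54 and 0.38 without array 1 of YR219P5_RC. RT1-CE5 differed by 0.12 (-1.39 to 1.64) in HF and RT1-T24-1 by 0.012 (-0.32 to 0.34). The sign for RT1-T24-1 in HF turned when the arrays were centred on their medians, to -0.086, so it has no settled direction.

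RT1-T24-1 had means of 6.56 ± 0.12 (SD, n = 4) in ungrafted TEC, 6.75 ± 0.23 after the first graft and 6.74 ± 0.11 after the second. The differences were 0.19 ± 0.11 (SE; -0.049 to 0.42; limma adjusted p = 0.455) and 0.18 ± 0.11 (-0.058 to 0.41; limma adjusted p = 0.411). The first was 0.11 without Clone_57 and 0.27 without Clone_907. With donor stage in the model the values were 0.17 and 0.16. Its intervals were the narrowest of the 3 genes.

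The difference between the change in TEC and the change in HF after a first transplantation was -0.28 for RT1-CE5 (-2.14 to 1.58), -0.59 for RT1-N2 (-1.94 to 0.76) and 0.17 for RT1-T24-1 (-0.23 to 0.58). None passed in limma, with adjusted p of 0.951, 0.867 and 0.868, and 0% of all probe sets did. With donor stage in the model the differences were 0.15 (-0.42 to 0.73; limma adjusted p = 0.897), -0.34 (-0.83 to 0.15; limma adjusted p = 0.777) and 0.15 (-0.27 to 0.58; limma adjusted p = 0.866). The sign for RT1-CE5 thus turned with the model.

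**Figure D3:**
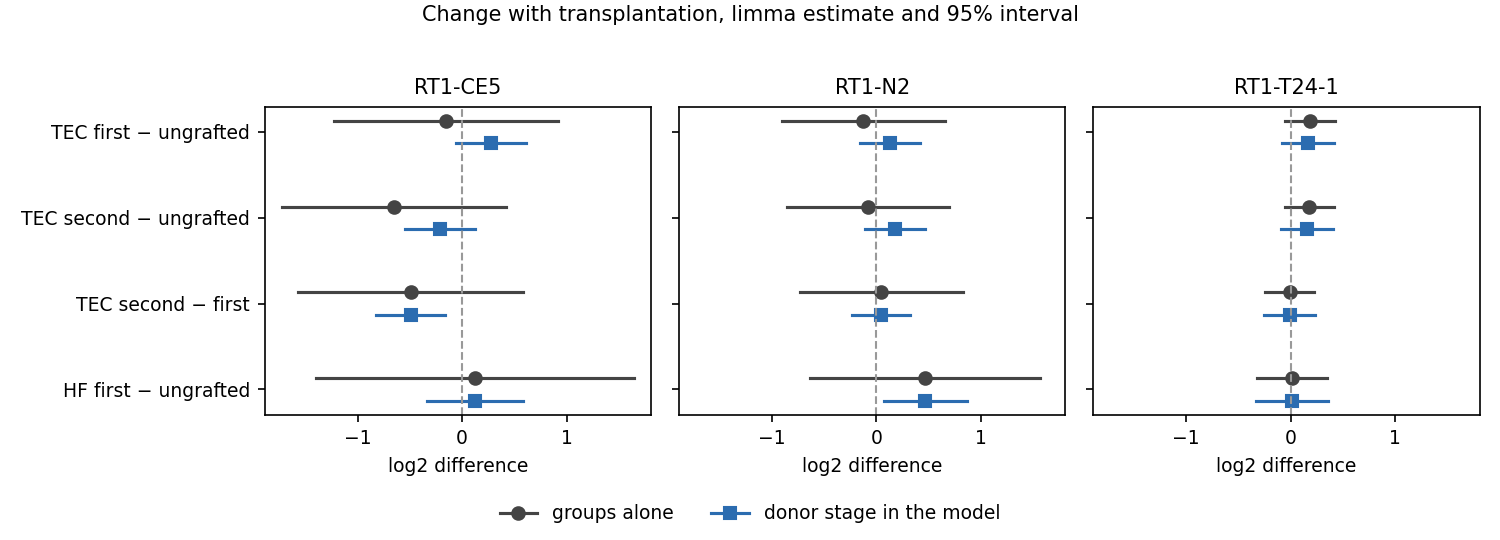
Change in log2 signal with transplantation for RT1-CE5, RT1-N2 and RT1-T24-1, as the limma estimate (point) and its 95% interval (bar), from group means alone (grey circles) and with donor stage in the model (blue squares). Without donor stage all intervals include 0. With it, the intervals of RT1-CE5 for second minus first in TEC (-0.82 to -0.17) and of RT1-N2 in HF (0.072 to 0.86) do not, and neither passes after adjustment over all probe sets. All HF cultures are P5, so in HF donor stage changes only the spread shared with TEC and not the estimate.

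At matched transplantation counts, RT1-T24-1 was 1.03 higher in ungrafted TEC than in ungrafted HF and 1.20 higher after a first transplantation. It was past the limma threshold in both comparisons and was the only 1 of the 3 genes that was, beside 1.55% and 0.0718% of all probe sets. It did not pass before grafting without YR219P5_Bulk_V, nor after a first transplantation without YR219P5_RC or without Clone_54, although the estimate stayed between 0.96 and 1.10 and between 1.13 and 1.28. The gene was chosen with this tissue difference known, so nothing is read from that count. RT1-CE5 stood 1.08 above HF in the ungrafted cultures and 0.80 in those grafted once, the latter 0.34 without Clone_907. RT1-N2 stood 1.07 and 0.47 above it, the latter 0.23 without Clone_57 or without Clone_54. With donor stage in the model, which sets E16 TEC as the TEC level, the values were -0.031 and 0.12 for RT1-CE5 and 0.27 and -0.066 for RT1-N2.

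The other class I heavy chains showed none of these patterns at this size. There were 25 probe sets for 23 further RT1 class I genes. Across the 16 cultures their SD ran from 0.084 to 0.398 with a median of 0.180, against 0.79 for RT1-CE5, 0.61 for RT1-N2 and 0.53 for RT1-T24-1. For 4 months minus E16 they ran from -0.42 (RT1-CE16) to 0.65 (RT1-N3) with a median of 0.042, where RT1-CE5 had 1.74. For P1 minus E16 they ran from -0.52 to 0.52 with a median of 0.070. For TEC minus HF they ran from -0.45 to 0.29, where RT1-T24-1 had 1.14. Since the 3 genes were chosen with these values known, their place outside the ranges is a description.

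Of the 25 probe sets, 0 passed in limma in any of the 4 transplantation comparisons or in the pair of matched tissue comparisons. Of all probe sets, 0% to 3.86% passed in these comparisons. At an unadjusted p under 0.05 no such share was counted. Unadjusted p-values under 0.05 were held by 1 after a first transplantation, 0 after a second, 2 between the grafts, 5 in HF, 5 between the ungrafted tissues and 4 between the tissues after a first transplantation. For P1 minus E16, where 6.08% of all probe sets passed, RT1-O1 was higher by 0.52 and RT1-CE16 lower by 0.52 and the other 23 did not pass.

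**Figure D4:**
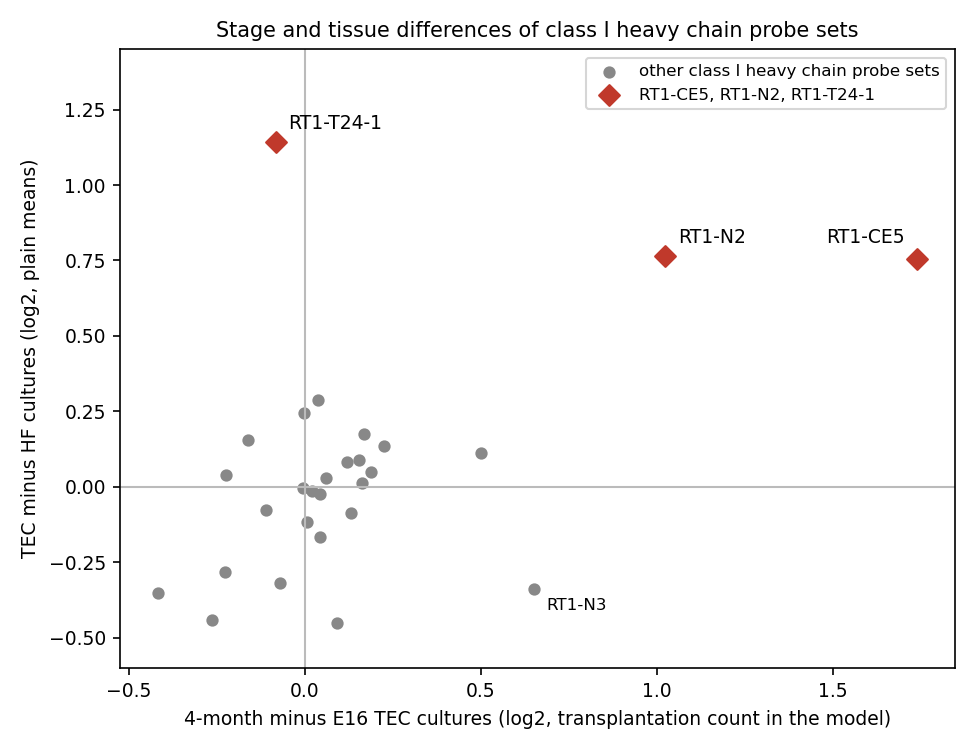
Each point is a class I heavy chain probe set, placed by its 4-month minus E16 difference among TEC cultures (horizontal axis, log2, transplantation count in the model) and its TEC minus HF difference (vertical axis, log2). The 25 other probe sets (grey circles) lie between -0.42 and 0.65 on the horizontal axis and between -0.45 and 0.29 on the vertical axis, and the diamonds of RT1-CE5, RT1-N2 and RT1-T24-1 lie outside that field.

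Class I genes are close copies of each other, and probe sequences were not used here, so how far a probe set reads a related gene is uncertain for all 3. In the array annotation the RT1-N2 and RT1-N3 probe sets share 1 transcript record. RT1-N3 read 6.68 to 7.27 in E16 TEC, 7.23 to 7.45 in P1 TEC, 7.17 to 7.78 in 4-month TEC and 7.05 to 8.24 in HF. Its HF mean of 7.58 was no lower than its TEC stage means of 6.95, 7.34 and 7.53, whereas RT1-N2 was low in HF, and its stage ranges overlapped. The transcript record behind the RT1-T24-1 probe set is not among those the RefSeq table now lists, so that name rests on the gene number alone. The annotated span of RT1-CE5 overlaps those of 10 other genes (2 protein-coding), among them RT1-CE4 and RT1-CE7. That of RT1-N2 overlaps 2 (1 protein-coding) and that of RT1-T24-1 overlaps 1, which is protein-coding. The signal of overlapping genes cannot be told apart by the name.

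The nearest measured genes on chromosome 20 are set beside each gene for the difference in which it stood out. Around RT1-CE5, 11 probe sets of the 10 nearest genes had 4-month minus E16 differences from -0.42 to 0.39. Its nearest copies, RT1-CE10 and RT1-CE4, had -0.23 and -0.22. Around RT1-N2 the range was -0.11 to 0.65, led by RT1-N3 and then RT1-O1 at 0.50. Around RT1-T24-1 the differences between ungrafted TEC and HF ran from -0.16 to 0.33. After a first transplantation they ran from -0.62 to 0.76, with the highest in Ppp1r10, a regulatory subunit of protein phosphatase 1.

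All 10 assembly and loading genes were measured. Of these, 0 passed in limma in any of the 6 comparisons of transplantation and tissue, beside the shares of all probe sets given above (0% to 3.86%), where 1, 1, 0, 0, 2 and 0 had an unadjusted p under 0.05. B2m, the shared light chain, lay between 11.63 and 12.15 in all cultures. Tap1 had stage means of 8.80 in E16, 8.46 in P1, 8.79 at 4 months and 8.35 in HF, and Tap2 had 6.76, 7.06, 7.14 and 6.63. The largest spread between TEC stages was that of Tapbpl, a relative of tapasin that edits peptides, with 7.28, 6.76 and 7.18. It was the 1 of the 10 that passed for P1 minus E16, beside 6.08% of all probe sets, and was lower in P1.

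The immunoproteasome cuts proteins into peptides suited to class I. After a second transplantation 4 of its 7 probe sets, for 3 of 5 genes, passed in limma and all 4 were lower, beside 3.86% of all probe sets. They were Psmb9 (a catalytic subunit; -1.16), Psmb10 (another; -0.74) and both probe sets of Psme2 (part of the activator; -0.74 and -0.76). The median over the list was -0.74, against 0.014 over all probe sets tested. The transplantation calls on this and the other lists come from the fit without donor stage. In it, 4-month cultures were 2 of 4 in ungrafted TEC and 1 of 4 in each grafted TEC group. None of the 7 passed after a first transplantation (0.516% of all probe sets did), where 4 had an unadjusted p under 0.05, or in HF (0% of all), where 0 did. By donor stage Psmb9 had means of 7.25 in E16, 7.07 in P1 and 7.74 at 4 months, and 0 of the 7 passed between stages, where 0.0914% of all probe sets did for 4 months minus E16, 6.08% for P1 minus E16 and 0.353% for 4 months minus P1.

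Interferons raise class I genes in most cells, and 19 probe sets of interferon-response genes were measured. Isg15, a ubiquitin-like protein and a common interferon readout, fell by 1.09 after a first transplantation. After a second it fell by 1.14, and it was 1.39 higher in ungrafted TEC than in ungrafted HF. Ifi44 fell by 0.67 after a second. The other interferon-response probe sets did not pass in grafted TEC, and 0 of 19 passed in HF. Of all probe sets, 0.516% passed after the first graft, 3.86% after the second, 0% in HF and 1.55% between the ungrafted tissues. By donor stage the mean of the list per culture was 5.85 to 6.37 in E16, 5.70 to 6.01 in P1, 5.80 to 5.94 at 4 months and 5.39 to 5.78 in HF. Its part in the stage differences of the 3 genes was not tested. For P1 minus E16, Gbp2 (0.84) and Mx2 (0.83) were higher and Usp18 (-1.93) and Ifih1 (-1.0) lower past the threshold, where 6.08% of all probe sets passed. For 4 months minus E16, 0 of 19 passed, where 0.0914% of all probe sets did.

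Of 16 listed regulators of class I transcription and interferon signalling, 13 had a probe set with 1 symbol, and 0 passed in any of the comparisons of transplantation, tissue or stage, where 0% to 6.08% of all probe sets did. Irf1, an interferon-induced activator of class I genes, had means of 8.03 in E16, 7.37 in P1, 7.45 at 4 months and 7.17 in HF. Ifnar1 had 7.78, 7.92, 8.27 and 7.84, the same order as the means of RT1-CE5. Rfx5, a subunit of the complex that binds MHC promoters, is named for its role and had 7.67, 7.28, 7.73 and 7.18. Irf1 and Rfx5 had other orders. The part of these genes in the stage differences was not tested. Among class I-like genes, Fcgrt, the neonatal Fc receptor, had 9.07, 8.04, 8.50 and 7.93. Hfe, which takes part in iron sensing, was the 1 of 4 that passed for P1 minus E16, at 0.49, beside 6.08% of all probe sets.

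Markers of other cell types are set beside the stage differences of RT1-CE5 and RT1-N2. Over 11 haematopoietic probe sets the mean per culture was 4.19 to 4.52 in E16, 4.09 to 4.21 in P1, 4.17 to 4.38 at 4 months and 4.14 to 4.32 in HF. Of these, 0 passed with transplantation, where 0% to 3.86% of all probe sets did. Cd68, a macrophage protein also found in other cells, was the exception in level, at 7.46 in E16, 5.68 in P1, 6.12 at 4 months and 5.46 in HF. The part of Cd68-carrying cells in the stage differences of RT1-CE5 and RT1-N2 was not tested. Over 9 fibroblast and feeder probe sets the mean was 5.26 to 5.53 in E16, 5.66 to 5.95 in P1, 5.21 to 6.01 at 4 months and 5.65 to 6.10 in HF. The E16 and P1 ranges of this mean did not overlap, with P1 higher. Of all single probe sets, 15.7% did not overlap there, in either direction. Of the 9, 0 passed for P1 minus E16, where 6.08% of all probe sets did. Vim had the widest stage range of the 9, with means of 9.49 in E16 and 10.54 in P1. Lum went the other way, with 2.62 and 2.54. The part of fibroblast or feeder RNA in the stage differences was not tested. RNA of more cells of a kind and more RNA per cell cannot be told apart in these cultures.

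Among the epithelial markers, Krt8, a simple-epithelium keratin and a TEC marker, had the widest difference between TEC and HF, where RT1-T24-1 also differed. Its 2 probe sets were 4.36 and 3.19 higher in TEC. After a second transplantation the second of them fell by 2.09 in TEC (limma adjusted p = 0.0482) and the other stood at -2.23 without passing. RT1-T24-1 stood at 0.18 in the same comparison.

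The genes whose signal followed each of the 3 most closely were ranked by Pearson r over the 16 cultures among the 15310 probe sets. For RT1-CE5 they were Hdhd2 (0.885), RT1-N2 (0.824), Enpp5 (0.778), Pip5k1b (0.757) and Yju2b (0.756). Hdhd2 had means of 6.06 in E16, 6.69 in P1, 6.94 at 4 months and 6.25 in HF, the same order as RT1-CE5 over a narrower range. For RT1-N2 they were Pip5k1b (0.856), Urb2 (0.852), Sirt7 (0.851), Tpd52 (0.842) and Tfip11 (0.838). Pip5k1b, a phosphoinositide kinase, stands in both rankings. It had means of 4.97 in E16, 5.65 in P1, 5.79 at 4 months and 4.61 in HF.

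For RT1-T24-1 the closest were B4galnt1 (0.940), a ganglioside-synthesising enzyme, Hoxa5 (0.931), a homeobox transcription factor, Hk2 (0.892), a hexokinase, Lrp10 (0.892) and Map3k1 (0.891). Hoxa5 had means of 6.72 in E16, 6.40 in P1 and 6.72 at 4 months, against 4.94 in HF. B4galnt1 had 7.79, 7.71 and 7.70, against 6.81. All 5 share the step between TEC and HF, which is also the step between the cultures labelled P5 and the rest.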

How the data were processed

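Total RNA of 16 cultures, each on 2 arrays, was amplified and biotin-labelled, per the labels. The deposited unit is log2 signal per probe set. The submitters' processing notes name RMA and the Affymetrix Expression Console as the tools the authors used for the deposited log2 values. The versions, the background setting and the annotation release are not given in the sources used here. No value was transformed again.

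Of 29215 probe sets, 15310 carried exactly 1 gene symbol and were tested, 323 had several symbols and 13582 none. The Entrez genes of 15279 were found in the RefSeq table of GRCr8. Both arrays of a culture were averaged. Differences were fitted with limma 3.58.1 in R 4.3.3 (lmFit and eBayes) on 16 culture means, with 1 coefficient for each of the 5 groups, and p-values were adjusted by Benjamini-Hochberg within each comparison (threshold 0.05). Stage differences came from the 12 TEC cultures with stage and transplantation count in the model. The number of arrays and cultures limits the precision.

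The genes and all lists were chosen with earlier results of these data known. The genes named are the 3 chosen, members of the lists past the threshold or with the widest stage range, the 5 nearest measured genes on either side and the 5 of highest r. Some list members are named for their role. The alternatives were other normalizations, other samples, arrays as units, a filter on a mean signal of 4 and donor stage as a covariate. Scripts were tested on simulated data.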

Additional observations from a re-analysis of the deposited data

Results flagged for a closer look

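RT1-N2 in PRE16cl11_VII read 5.41, far below the other ungrafted TEC cultures, which read 6.59 to 6.66. The gap to the nearest culture was 0.938 of the range of the group. PRE16cl11_VII is the 1 E16 culture of that group, and its value lies within the range of the other E16 cultures, 5.39 to 5.86. Of 18 groups examined this way, 1 was singled out, and chance alone singles out about 1 in 20.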

How the results depend on the processing

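No alternative brought any of the 3 genes past the threshold in a transplantation comparison. The count past the threshold between ungrafted TEC and HF, 1, became 0 with clonal cultures alone, and lay between 0 and 1 when each culture was left out in turn (0 without YR219P5_Bulk_V). After a first transplantation the count, also 1, became 0 with only the groups compared and with clonal cultures alone, and lay between 0 and 1 when cultures were left out (0 without YR219P5_RC or Clone_54). These settings leave fewer cultures. The sign turned with donor stage in the model for RT1-CE5 (0.28) and RT1-N2 (0.13) in TEC after a first and RT1-N2 (0.18) after a second transplantation, for RT1-CE5 between ungrafted tissues (-0.031) and for RT1-N2 between tissues after a first transplantation (-0.066). In HF the sign of RT1-T24-1 turned with arrays centred on their medians (-0.086), with quantile normalization (-0.087), with clonal cultures alone (-0.098) and without array 1 of YR219P5_RC (-0.018, chosen after seeing the data), and that of RT1-CE5 with clonal cultures alone (-0.12). The cause was not tested.

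When each culture was left out in turn, the change after a first transplantation in TEC ran from -0.62 to 0.13 for RT1-CE5 and from -0.43 to 0.14 for RT1-N2. That of RT1-N2 after a second ran from -0.38 to 0.067, and its difference between second and first from -0.22 to 0.29. RT1-T24-1 ran from -0.088 to 0.067 between second and first and from -0.058 to 0.081 in HF, and RT1-CE5 from -0.028 to 0.28 in HF. The difference between the changes of TEC and HF for RT1-CE5 (-0.28) ran from -0.75 to 0.0030 (the latter without Clone_218) and was 0.15 with donor stage in the model; these settings were chosen after seeing the data. The tested changes not named here kept their sign under the settings run. Among the untested stage differences, those of RT1-T24-1 for 4 months minus E16 and P1 minus E16 and that of RT1-N2 for 4 months minus P1, all near 0, crossed 0 under some settings, with ranges of -0.19 to 0.013, -0.071 to 0.19 and -0.20 to 0.030. Over all settings the stage difference of RT1-CE5 between 4 months and E16 ran from 1.48 to 1.92 and that of RT1-N2 from 0.95 to 1.18.

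Deviations from the culture means of same-numbered arrays had a median correlation of -0.011 over 120 pairs of cultures. Single pairs ran from -0.635 to 0.574. The array numbers of the labels thus gave no common pairing, though arrays of some cultures deviated together or in opposite directions. With arrays as units, culture as a random block and array number as a replicate block, RT1-CE5 after a second transplantation differed by -0.65 (limma adjusted p = 0.271), and no call moved.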
